A study of Mus musculus with 15 samples.

Results

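Liver allografts taken early, on day 5 after transplantation, were compared with tolerated allografts taken on day 100. The comparison used 6 of the 15 arrays of the series, 3 for each day, and every mouse miRNA on the array. Of 567 mouse miRNAs, 103 were detected well enough to be tested, and 30 of them passed the test between the days in the fit of all arrays. Many of these calls depended on single arrays, as described with the results. Livers of male B10.BR mice (H2-Kk) had been transplanted into male B10.D2 recipients (H2-Kd), an allogeneic combination, and no immunosuppressant was given. The other 9 arrays held allografts of day 8 and day 14 and syngeneic grafts of day 5, with 3 arrays in each group. The labels give the allogeneic strain pair for the syngeneic arrays too, and these were taken as syngeneic from their titles. Each group came from 3 mice. RNA was extracted from pieces of the whole graft, so hepatocytes, infiltrating blood cells and vessel cells were measured together, and more cells of a type cannot be told apart from more of a miRNA per cell.

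MiRNAs are short RNAs that lower the output of the mRNAs they pair with, mainly through the seed, which is bases 2 to 8 of the mature strand. Members with the same seed can act on overlapping mRNAs, and several miRNAs are often cut from a common primary transcript. In a rejecting liver graft, T cells and myeloid cells enter the portal areas and hepatocytes are damaged, and some miRNAs are known to be abundant in blood cells and others in hepatocytes.

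The mature sequences of the families on which the results turned are shown with the seed in capitals. They were taken from RefSeq (GRCm38.p6), in which 88 of the 103 tested miRNAs and 28 of the 30 called ones were matched. The following share the seed of miR-17 and were all higher on day 5.
miR-20a: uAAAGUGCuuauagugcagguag
miR-20b: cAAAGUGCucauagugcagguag
miR-106b: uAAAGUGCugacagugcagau
miR-93: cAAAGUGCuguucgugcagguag
The next are the miR-19 pair, also higher on day 5, and after them miR-92a and miR-25, which come from the same hairpin clusters with another seed and did not pass the test.
miR-19a: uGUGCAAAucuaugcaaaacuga
miR-19b: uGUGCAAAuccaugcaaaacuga
miR-92a: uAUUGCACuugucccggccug
miR-25: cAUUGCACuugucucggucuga
The let-7 members that were lower on day 5 are shown beside let-7i, which has the same seed and did not pass.
let-7a: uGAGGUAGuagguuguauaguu
let-7b: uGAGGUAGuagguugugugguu
let-7c: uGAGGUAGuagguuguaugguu
let-7i: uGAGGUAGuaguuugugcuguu
The miR-15/16 seed is shown because its members went in different directions in the fit of all arrays: miR-195 and miR-497 were lower on day 5, miR-322, read by weak probes, was higher and miR-16 did not pass.
miR-195: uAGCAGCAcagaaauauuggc
miR-497: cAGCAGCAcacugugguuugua
miR-322: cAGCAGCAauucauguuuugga
miR-16: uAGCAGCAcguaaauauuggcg
The last sequences are miR-301a, which was higher on day 5, and miR-130a, which has its seed and did not pass, with miR-21, miR-223, miR-155 and both miR-101 members, all higher on day 5.
miR-301a: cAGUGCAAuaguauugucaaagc
miR-130a: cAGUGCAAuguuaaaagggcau
miR-21: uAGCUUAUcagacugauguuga
miR-223: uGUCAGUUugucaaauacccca
miR-155: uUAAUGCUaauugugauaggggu
miR-101a: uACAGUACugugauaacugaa
miR-101b: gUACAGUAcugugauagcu

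A value in this text is the log2 scaled signal of a miRNA, that is, its intensity relative to the 75th percentile of the array over the 52 miRNAs detected on all 15 arrays, so that 0 is that percentile. A difference is the mean of day 5 minus the mean of day 100 on this scale, and ± gives its standard error. Weak signals were raised to a floor of -5.21, which can understate the differences of dim miRNAs. A noisy array whose signals fall to the floor can also overstate them. A miRNA was called where limma, fitted to all 15 arrays, gave a Benjamini-Hochberg adjusted p below 0.05 over the 103 miRNAs, and every adjusted p is from this fit unless stated. Different miRNAs are read by different probes, so their levels are not compared with each other.

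Replicate 1 of day 100 and replicate 3 of day 5 stood apart from the other arrays. On the former, the scanner software estimated an additive error of 13.1 intensity units, and on the remaining 14 arrays of 2.67 to 3.66. On that array 34 of the 103 tested miRNAs lay at the floor against 3 to 12 on the other 5 arrays of both days. The median difference of all 103 was 0.14 in the fit of all arrays and 0.05 without that array. Replicate 3 of day 5 had the lowest 75th percentile of the 6 arrays, 457 intensity units where the others had 516 to 1002, and miR-720, a tRNA fragment listed as a miRNA, took 31.4% of its mouse signal against 8.74% to 15.6% on the other 5. All 6 arrays were on the same slide, but in the file headers the position codes of the day 100 arrays began with 1 and those of the day 5 arrays with 2, so the position on the slide and the day cannot be told apart.

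On the day 5 arrays 111, 114 and 84 mouse miRNAs were detected, and on the day 100 arrays 60, 79 and 90. The ranges of the days overlapped, and the exact permutation test gave p = 0.2 (two-sided, where 3 arrays against 3 cannot go below 0.1). Of the 567 mouse miRNAs, 53 were detected on all 6 arrays and 444 on none of them. The 6 miRNAs miR-19a, miR-301a, miR-188-5p, miR-338-3p, miR-212 and miR-689 were detected on all 3 day 5 arrays and on no day 100 array, and 0 miRNAs showed the opposite pattern. Of the 6 hepatocyte markers, 4 were detected on all 6 arrays, and miR-215 and miR-802 were too seldom detected to be tested. MiR-122, the main miRNA of hepatocytes, was at 4.15, 4.42 and 4.42 on day 5 and at 4.37, 4.56 and 4.27 on day 100.

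Of the 103 tested miRNAs, 30 were called (29.1%), 22 higher on day 5 (21.4%) and 8 lower (7.77%). The arrays of the days did not overlap for any of these 30, while over all tested miRNAs 48 (46.6%) did not overlap. The median difference of all 103 was 0.14. The split of 22 to 8 depended on the scaling between arrays: it was 10 to 1 with the 75th percentile over all mouse miRNAs, 12 to 8 after quantile normalization, 14 to 0 without scaling and 6 to 7 when each array was divided by its total signal, which put the median difference at -0.30. A normexp background correction gave 4 to 7, so at most 4 of the 22 higher miRNAs kept their call under it. Of its 11 calls, 10 were among the 30. All 30 miRNAs kept their sign under each of the 5 other scalings, of which the fifth used the median, but the calls of most did not hold under all of them. The 6 called under each of the 5 were miR-142-3p, miR-142-5p, miR-19a, miR-20b, miR-188-5p and miR-301a. MiR-20a, miR-223, miR-7a and let-7c were called under 4, miR-21, let-7b, miR-125b-5p and miR-30c under 3, 8 under 2 and 8 under 1. The normexp correction is not among these 5, and it ended the calls of miR-188-5p and miR-301a.

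**Figure D1:**
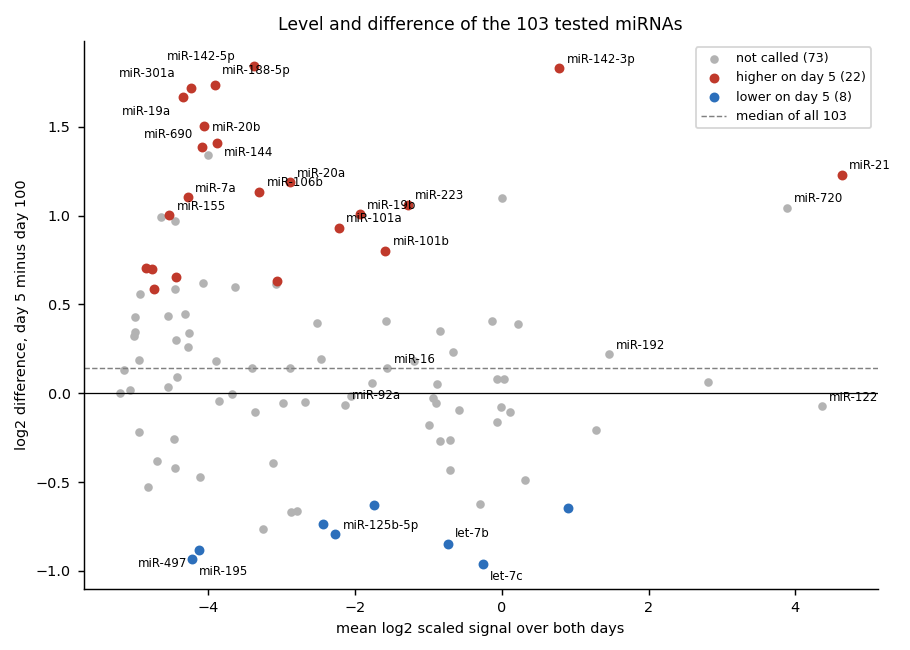
Each point is 1 of the 103 tested miRNAs, with its mean log2 scaled signal over both days on the x axis and its log2 difference, day 5 minus day 100, on the y axis. The 22 red points were called higher and the 8 blue points lower on day 5, grey points were not called, and the dashed line marks the median difference of 0.14.

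The 2 arms of miR-142, a miRNA of blood cells, rose on day 5, and in the fit of all arrays their differences were the largest. Without replicate 3 of day 5 they were not, and those of miR-690 (1.46) and miR-20b (1.45) were larger. MiR-142-3p was at 1.14, 1.18 and 2.77 on day 5 and at -0.34, -0.00 and -0.06 on day 100. Every day 5 array was above every day 100 array, and replicate 3 of day 5 was far above the other two. The fitted difference was 1.83 ± 0.43, or 3.56-fold (adjusted p = 0.00898), and 1.29 without that array (adjusted p = 0.0411). The opposite arm, miR-142-5p, was at -2.82, -2.94 and -1.60 on day 5 and at -5.21, -3.79 and -3.90 on day 100, where replicate 1 lay at the floor. Its difference of 1.84 ± 0.46 (adjusted p = 0.0106) fell to 1.42 without replicate 3 of day 5 (adjusted p = 0.0529) and was 0.96 without both arrays that stood apart.

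Other leukocyte miRNAs rose with them. MiR-223, a myeloid miRNA of the X chromosome (chrX:96242817-96242926), was at -0.75, -1.12 and -0.38 on day 5 and at -2.02, -1.58 and -1.83 on day 100, a 2.09-fold difference (1.06 ± 0.24, adjusted p = 0.00898) without overlap. MiR-155, which is induced in activated lymphocytes and macrophages and is cut from the non-coding Mir155hg transcript (chr16:84714140-84714204), was at -4.44, -4.05 and -3.60 on day 5 and at -5.21, -4.94 and -4.94 on day 100. It was detected on 1 of the 3 day 100 arrays, and its difference was 1.00 ± 0.27 (adjusted p = 0.0166). MiR-342-3p, from within the Evl gene, differed less, with -3.10, -2.73 and -2.43 on day 5 and -3.56, -3.46 and -3.13 on day 100 (0.63 ± 0.20, adjusted p = 0.0336). Its lowest day 5 array lay just above its highest day 100 array.

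In all, 5 of the 6 tested leukocyte miRNAs were called, and all 5 were higher on day 5, beside 21.4% of all tested miRNAs. The exception was miR-146a, a miRNA induced by NF-kB, with a difference of 0.14 (95% interval -0.32 to 0.60). The median of the list was 1.03, against 0.14 for all tested miRNAs. MiR-150 and miR-146b, the other members on the array, were detected on no array of either day. The summed linear signal of the 8 leukocyte miRNAs was 3.23 to 8.38 times the array's 75th percentile on day 5 and 1.25 to 1.66 times on day 100 (exact permutation p = 0.1, two-sided, the smallest possible). Most of this sum was miR-142-3p alone, at 2.21, 2.26 and 6.82 on day 5 and 0.79, 1.00 and 0.96 on day 100. The highest sum was that of replicate 3 of day 5. Leaving out either replicate 1 of day 100 or replicate 3 of day 5 ended the calls of miR-155 and miR-342-3p. Of the 5 other scalings, both arms of miR-142 were called under 5, miR-223 under 4, miR-155 under 2 and miR-342-3p under 1.

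**Figure D2:**
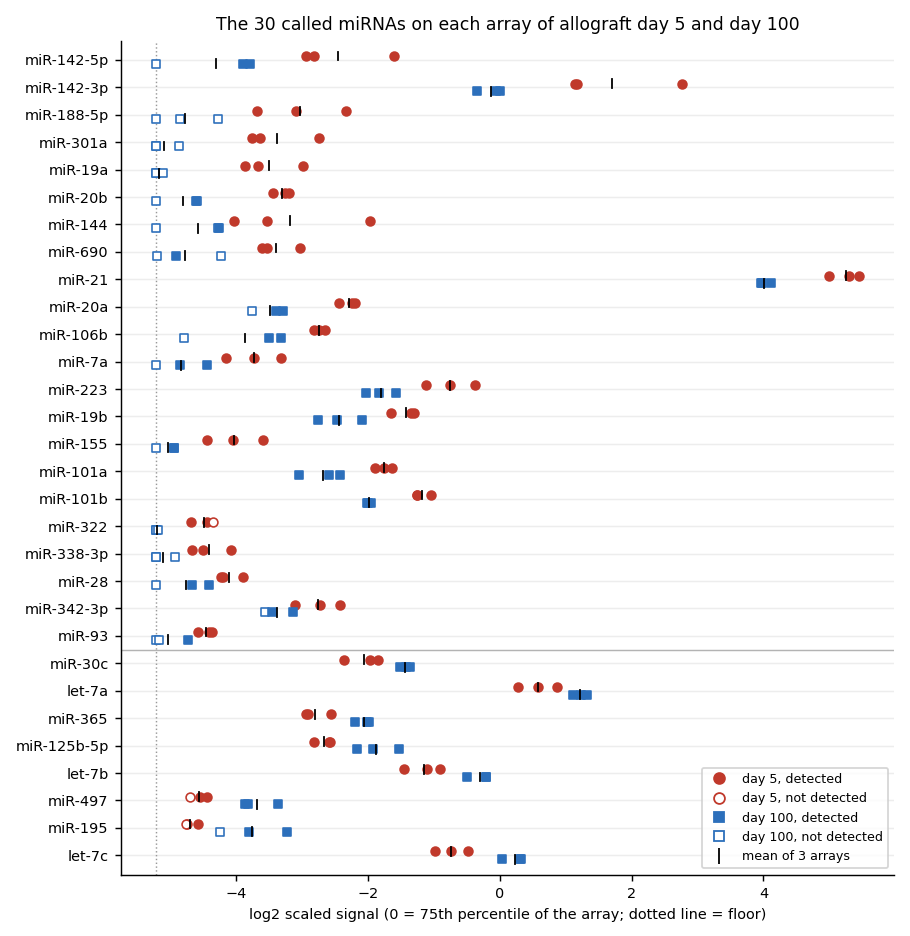
For each of the 30 called miRNAs, the log2 scaled signal on the 3 day 5 arrays (circles) and the 3 day 100 arrays (squares) is plotted, open where the miRNA was not detected on that array, with the mean of each day as a bar. Replicate 1 of day 100 gives many of the points at the floor (dotted line), and 1 day 5 array stands to the right for miR-142-3p, miR-142-5p and miR-144.

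The second group of rises comprised the miR-17 cluster and its paralogs, which are known to promote cell division and lymphocyte growth. The cluster lies on chromosome 14 (chr14:115043671-115044506), a paralog lies on the X chromosome (chrX:52741838-52742192) and another inside Mcm7, a replication gene (chr5:138165321-138165818). MiR-20a was at -2.19, -2.44 and -2.24 on day 5 and at -3.76, -3.40 and -3.28 on day 100, a 2.28-fold difference (1.19 ± 0.22, adjusted p = 0.00300). MiR-19b was at -1.30, -1.64 and -1.34 on day 5 and at -2.76, -2.46 and -2.09 on day 100, a 2.01-fold difference (1.01 ± 0.24, adjusted p = 0.00898). For both, the 3 day 5 arrays were close together and entirely above day 100.

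The dimmer members moved the same way. MiR-19a was at -3.67, -3.87 and -2.98 on day 5 and was not well above background on any day 100 array, which made it at least 2.01-fold higher on day 5 (adjusted p = 0.00300), where the limit for day 100 is the weakest signal well above background on each array. This bound is for the sum of its 2 probes, which differed by 0.32 and 1.02 with the same floor. Among the alternative ways of processing, the difference of miR-19a went down to 0.08. MiR-20b was at -3.26, -3.45 and -3.20 on day 5 and at -5.21, -4.59 and -4.61 on day 100, where 1 array detected it (2.84-fold, adjusted p = 0.00300). In the Mcm7 cluster, miR-106b was at -2.65, -2.82 and -2.75 on day 5 and at -4.80, -3.50 and -3.32 on day 100 (1.13 ± 0.33, adjusted p = 0.0200), and without replicate 1 of day 100 its difference was 0.67 (adjusted p = 0.0543). MiR-93, its neighbor, was detected on 1 day 100 array and differed by 0.58 ± 0.17 (adjusted p = 0.0201), a call that was also lost without replicate 1 of day 100. The mature strands of miR-19a and miR-19b differ at 1 of 23 bases and those of miR-20a and miR-20b at 2 of 23, and whether each probe tells its target from the other was not tested.

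Of the 8 tested members of this list, 6 were called, all of them higher on day 5, again beside 21.4% of all tested miRNAs, and the list median was 1.07. Grouped by seed, all 4 tested members with the miR-17 seed and both with the miR-19 seed were called, whereas neither member with the miR-92 seed was. MiR-92a was at -2.37, -2.02 and -2.12 on day 5 and at -2.13, -2.16 and -2.04 on day 100, with a difference of -0.06 (95% interval -0.64 to 0.51). MiR-25 differed by 0.62 (95% interval 0.12 to 1.12, adjusted p = 0.0585). This grouping of calls depended on the scaling. Of the 5 other scalings, miR-19a and miR-20b were called under 5, miR-20a under 4, miR-19b under 2, and miR-106b and miR-93 under 1. With the median as the scale, limma also called miR-25 (adjusted p = 0.0112). No test of the difference between the seeds was made. MiR-17 itself, miR-18a, miR-18b, miR-106a and miR-363 were on the array but were not tested because too few arrays detected them. The summed signal of all 13 members was 1.20 to 1.38 on day 5 and 0.531 to 0.854 on day 100 (exact permutation p = 0.1).

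MiR-301a, encoded in the Ska2 gene (chr11:87113004-87113089), was at -3.64, -3.76 and -2.74 on day 5 and not well above background on day 100, at least 2.33-fold higher (adjusted p = 0.00340). This bound is for the sum of its 2 probes, which differed by 0.18 and 1.41 with the same floor. MiR-130a, with the same seed, was measured on all arrays and differed by 0.23 (95% interval -0.15 to 0.62). MiR-188-5p, from the Clcn5 gene on the X chromosome, was also not well above background on day 100, where its measured mean was -4.78 against -3.04 on day 5 (adjusted p = 0.00947). Its values of -3.68, -3.10 and -2.34 on day 5 were spread over more than a log2 unit. The size of its difference depended on the probes: it was 0.73 with the brightest probe alone (adjusted p = 0.0366), and no bound is given. MiR-338-3p, from the Aatk gene, had day 5 values of -4.51, -4.67 and -4.07 near the detection limit and was at least 1.13-fold higher (adjusted p = 0.0422). The normexp correction, which adds an offset of 50 intensity units, made these differences small, 0.29 for miR-301a, 0.26 for miR-188-5p and 0.08 for miR-338-3p, and ended the 3 calls. The remaining miRNAs detected on all day 5 arrays and on no day 100 array, miR-212 and miR-689, were not called.

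MiR-21, a miRNA of injured and inflamed tissue whose hairpin lies within Vmp1 (chr11:86584067-86584158), rose in a bright and tight measurement. It was at 5.29, 4.99 and 5.45 on day 5 and at 3.98, 3.96 and 4.11 on day 100, a 2.35-fold difference (1.23 ± 0.22, adjusted p = 0.00300). The days were separated by far more than the spread of either, and the difference without either array that stood apart was 1.21 and 1.13. The call was lost after quantile normalization (0.48, adjusted p = 0.0527) and with total signal scaling (0.74, adjusted p = 0.0606). Of the 8 tested members of the injury and inflammation list, miR-21 and miR-155 were called, and the list median was 0.33. MiR-22, miR-34a, miR-146a, miR-210, miR-212 and miR-221 were not called. MiR-34a, a p53 target, had a difference of -0.39 (95% interval -0.99 to 0.21).

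Both miR-101 members were higher on day 5. These miRNAs repress Ezh2 and are expressed in liver. MiR-101a was at -1.75, -1.89 and -1.63 on day 5 and at -3.05, -2.59 and -2.42 on day 100, 1.91-fold higher (0.93 ± 0.22, adjusted p = 0.00947). MiR-101b, from the Rcl1 gene on chromosome 19, was at -1.26, -1.25 and -1.05 on day 5 and between -2.01 and -1.95 on all 3 day 100 arrays, 1.74-fold higher (0.80 ± 0.19, adjusted p = 0.00898). Neither pair of ranges overlapped. Neither miR-101a nor miR-101b was called with the 75th percentile over all mouse miRNAs, without scaling or with total signal scaling, and total signal scaling gave miR-101a a difference of 0.44 (adjusted p = 0.228) and miR-101b one of 0.31 (adjusted p = 0.382). MiR-101b also missed the threshold after quantile normalization (adjusted p = 0.0513). In the study's list of 10 miRNAs, which was chosen on these samples, the called members were these 2 and miR-223, all higher on day 5, and the list median was 0.16. A list chosen in this way is not independent evidence of a direction.

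Of the 4 tested hepatocyte miRNAs, miR-122, miR-192, miR-194 and miR-148a, 0 were called by limma, and 0 had an unadjusted p below 0.05. Their differences lay between -0.16 and 0.22. The methods' t-test, which uses the 6 arrays alone, put miR-192 and miR-148a below 0.05 without adjustment, and the arrays of the days did not overlap for either of them. The 95% interval of miR-122 was -0.39 to 0.25 in the fit of all arrays. After quantile normalization its difference was -1.03, outside that interval and not called (adjusted p = 0.0575). The summed signal of the 6 hepatocyte miRNAs was 22.0 to 26.0 on day 5 and 23.3 to 27.8 on day 100 (exact permutation p = 0.7). In the endothelial and stromal list, 0 of 4 tested members were called by limma. Of these, miR-140 alone had an unadjusted p below 0.05 in limma, and none did in the methods' t-test. The miR-140 difference of 0.61 was 0.29 without replicate 3 of day 5. MiR-126-3p of endothelial cells differed by -0.08 (95% interval -0.34 to 0.19). MiR-199b, the opposite arm of the untested list member miR-199b*, was outside the list. It differed by -0.67 and was not called (unadjusted p = 0.0465 in limma). Of the 5 bile duct epithelial miRNAs, 0 could be tested and 3 were detected on no array of either day. Their summed signal was 0.0678 to 0.123 on day 5 and 0.0235 to 0.0445 on day 100 (exact permutation p = 0.1, the smallest possible). These sums lie near background, since the floor of a single miRNA was 0.0270, and no difference is read from them.

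Of the erythroid miRNAs, miR-144 was called and miR-451 was not, although their hairpins lie within 237 bases of chromosome 11 (chr11:78073005-78073241). MiR-144 was at -3.53, -4.03 and -1.97 on day 5 and at -5.21, -4.28 and -4.27 on day 100 (1.41 ± 0.47, adjusted p = 0.0379). Its highest day 5 value was that of replicate 3, without which the difference was 0.81 (adjusted p = 0.192), and without replicate 1 of day 100 it was 1.10 (adjusted p = 0.145). Without both it was 0.50. MiR-451 was at 0.40, 0.05 and 0.80 on day 5 and at 0.25, -0.66 and 0.48 on day 100, with overlapping ranges and a 95% interval of -0.34 to 1.12. The summed signal of the 3 erythroid miRNAs was 1.10 to 1.99 on day 5 and 0.685 to 1.45 on day 100 (exact permutation p = 0.5). The part of red cell RNA in the other results was not tested.

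**Figure D3:**
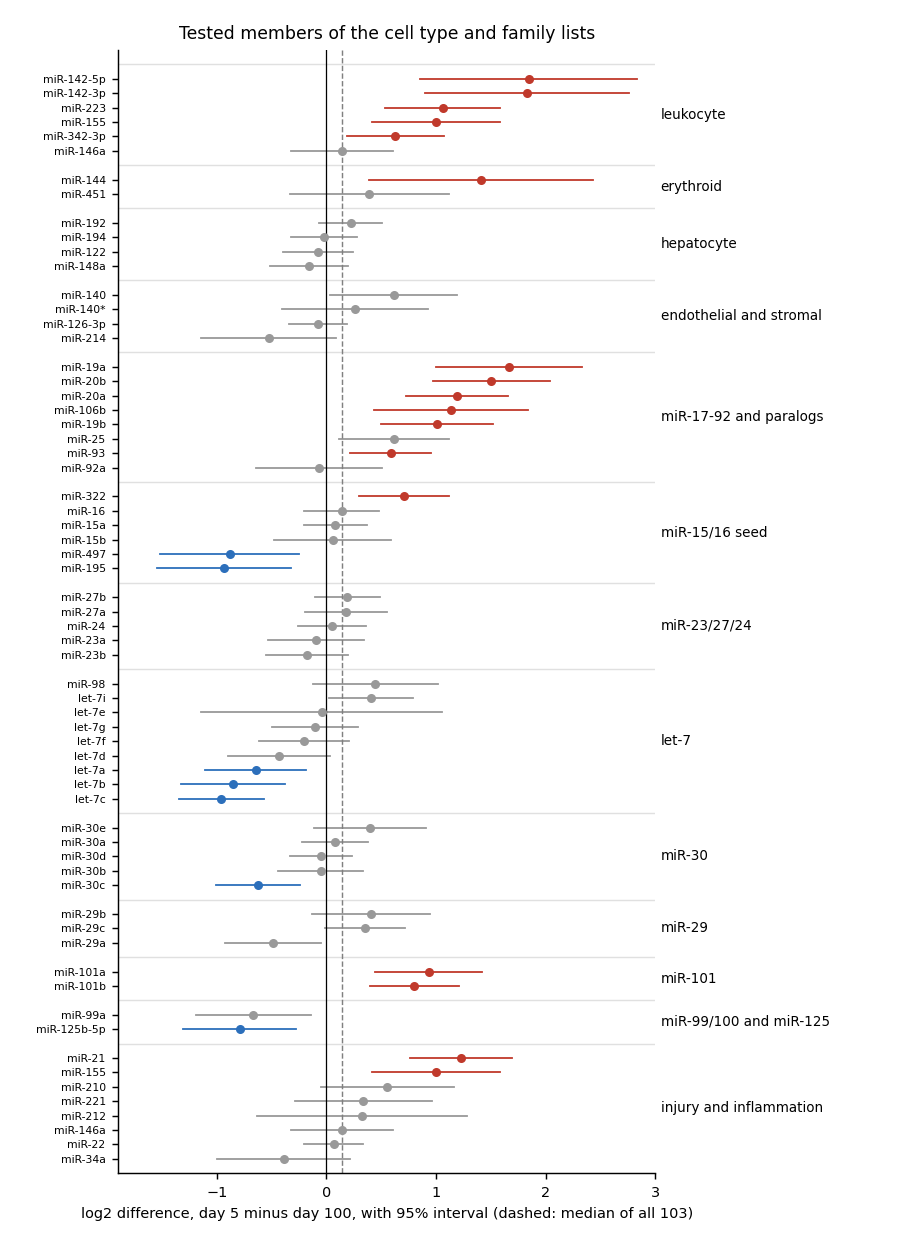
Log2 differences, day 5 minus day 100, with 95% intervals are shown for the tested members of 13 cell type and family lists. Leukocyte members and those of the miR-17 cluster and paralogs lie to the right, hepatocyte and miR-23/27/24 members around 0, and let-7 and miR-15/16 members are spread over both sides; red and blue mark called rises and falls, and miR-155 and miR-146a appear in both lists that hold them.

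Lower on day 5 than on day 100 were members of the let-7 family, which are abundant in differentiated cells and restrain growth genes. Let-7c was at -0.98, -0.48 and -0.74 on day 5 and at 0.03, 0.33 and 0.31 on day 100, so that day 100 was 1.94-fold higher (-0.96 ± 0.18, adjusted p = 0.00300). Let-7b was at -1.46, -0.91 and -1.10 on day 5 and at -0.49, -0.22 and -0.21 on day 100 (-0.85 ± 0.22, adjusted p = 0.0130). Let-7a was at 0.28, 0.86 and 0.58 on day 5 and at 1.10, 1.32 and 1.24 on day 100 (-0.64 ± 0.21, adjusted p = 0.0374). In all 3 the lowest day 5 value was that of replicate 1, and the days did not overlap.

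With these 3 of 9 tested let-7 members called lower, beside 7.77% of all tested miRNAs, the other 6 were not called. Their differences ran from -0.43 for let-7d to 0.45 for miR-98, and that of let-7i was 0.41 (95% interval 0.02 to 0.79). The family median was -0.21, and the summed signal of the 9 members was 5.81 to 7.98 on day 5 and 8.46 to 9.70 on day 100 (exact permutation p = 0.1). Let-7a and let-7c differ at 1 of 22 bases, as do let-7b and let-7c, and let-7a also differs at 1 base from let-7e and let-7f, so the extent to which their probes share signal is uncertain. Let-7b and let-7c have hairpins together on chromosome 15 (chr15:85706603-85707403), inside a non-coding RNA named Lncppara. Let-7c has a further hairpin beside miR-99a on chromosome 16 (chr16:77598936-77599750), and miR-99a, at -0.67 ± 0.24, lay just outside the threshold (adjusted p = 0.0511). MiR-125b-5p, with a hairpin in the non-coding Mir100hg gene (chr9:41581926-41582002), was at -2.82, -2.58 and -2.60 on day 5 and at -1.93, -2.16 and -1.53 on day 100 (-0.79 ± 0.24, adjusted p = 0.0252).

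MiR-195 and miR-497, which are cut from a pair of hairpins within 419 bases of chromosome 11 (chr11:70234717-70235135) and repress cell cycle genes, were lower on day 5. MiR-195 was at -4.75, -4.58 and -4.76 on day 5 and at -4.25, -3.81 and -3.23 on day 100 (-0.93 ± 0.28, adjusted p = 0.0252). MiR-497 was at -4.55, -4.44 and -4.71 on day 5 and at -3.82, -3.86 and -3.37 on day 100 (-0.88 ± 0.29, adjusted p = 0.0374). Each was detected on 2 day 5 arrays, and on day 100 miR-195 was detected on 2 arrays and miR-497 on 3. The day 100 values spread more widely than those of day 5. The 2 probes of miR-195 differed by -0.95 and -0.10, and 1 of the 2 probes of miR-497 lay at the floor on all arrays of both days. Each of the pair was called under 2 of the 5 other scalings.

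Of the 6 tested miRNAs with their seed, miR-322 on the X chromosome went the other way. It was at -4.44, -4.69 and -4.35 on day 5, with 2 arrays above background, and not well above background on day 100, at least 1.03-fold higher on day 5 (adjusted p = 0.0166). Of its 2 probes, 1 lay at the floor on all 6 arrays, and the other, with the same floor, differed by only 0.07. The difference of miR-322 thus rested on the sum of weak probes, and it was called under 1 of the 5 other scalings. MiR-15a, miR-15b and miR-16, which have the same seed and lie elsewhere in the genome, were not called, with differences of 0.08, 0.06 and 0.14. The 95% interval of miR-16 was -0.20 to 0.48. The summed signal of the 6 members was 1.81 to 1.86 on day 5 and 1.61 to 1.95 on day 100 (exact permutation p = 0.7).

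MiR-365 and miR-30c completed the miRNAs lower on day 5. MiR-365 was at -2.93, -2.56 and -2.90 on day 5 and at -2.01, -2.20 and -1.98 on day 100 (-0.74 ± 0.21, adjusted p = 0.0190). MiR-30c was at -2.36, -1.85 and -1.97 on day 5 and at -1.37, -1.42 and -1.52 on day 100 (-0.63 ± 0.18, adjusted p = 0.0190), without overlap. It was the only called member of 5 in the miR-30 list, whose median was -0.05. In the miR-23/27/24 list, 0 of 5 were called by limma, 0 had an unadjusted p below 0.05 in limma or in the methods' t-test, and all 5 differences lay between -0.18 and 0.19. In the miR-26 list 0 of 2 were called and 0 passed without adjustment in either test, with a list median of -0.27. In the miR-29 list limma called 0 of 3, with 1 below 0.05 unadjusted and all 3 so in the methods' t-test, and the differences were -0.49 for miR-29a, 0.41 for miR-29b and 0.35 for miR-29c.

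The called miRNAs outside the lists were miR-188-5p, miR-301a, miR-338-3p, miR-365, miR-690, miR-7a and miR-28. MiR-690 was at -3.04, -3.61 and -3.54 on day 5 and at -4.23, -5.21 and -4.91 on day 100 (1.39 ± 0.44, adjusted p = 0.0329). MiR-7a and miR-28 were named only to complete the called miRNAs, after their values were seen. MiR-7a, whose hairpins include one in the Hnrnpk gene, was 2.15-fold higher on day 5 (1.10 ± 0.25, adjusted p = 0.00898). MiR-28 was 1.58-fold higher (0.66 ± 0.19, adjusted p = 0.0190).

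All 30 called miRNAs had more than 1 probe. All probes of 22 of them gave the direction of the sum, and in the other 8 a probe lay at the floor on all 6 arrays. In none of the 30 did a probe have the opposite sign. The 30 were called on the sum of these probes, and weak probes were raised to the floor, so this agreement is not independent evidence of a direction.

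The number of calls changed with single arrays. Leaving out replicate 1 of day 100 gave 19 calls, leaving out replicate 3 of day 5 gave 16 and leaving out replicate 1 of day 5 gave 18. The 13 miRNAs called in each of the 6 fits that left out 1 array were miR-19a, miR-19b, miR-20a, miR-20b, miR-21, miR-7a, miR-101a, miR-101b, miR-142-3p, miR-188-5p, miR-223, miR-301a and let-7c. Let-7c was the only one of them that was lower on day 5. MiR-142-5p and let-7b were called in 5 of the 6 fits, miR-155, miR-28, miR-322 and miR-30c in 4, miR-106b and miR-195 in 3, and miR-144, miR-690, miR-342-3p, miR-338-3p, miR-93, miR-125b-5p and miR-365 in 2. Let-7a and miR-497 were called in 1 of them. Of the 8 miRNAs lower on day 5, let-7c alone kept its call when replicate 1 of day 5 was left out. When replicate 3 of either day was removed, let-7b, let-7c and miR-30c kept theirs. Removing replicate 1 of day 100 left let-7b, let-7c and miR-195. When both arrays that stood apart were left out together, a choice made after seeing the data, 0 miRNAs passed limma's adjusted threshold, with a smallest adjusted p of 0.0505, and 33 had an unadjusted p below 0.05, of which 26 belonged to the 30. All 30 kept their sign in that fit.

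**Figure D4:**
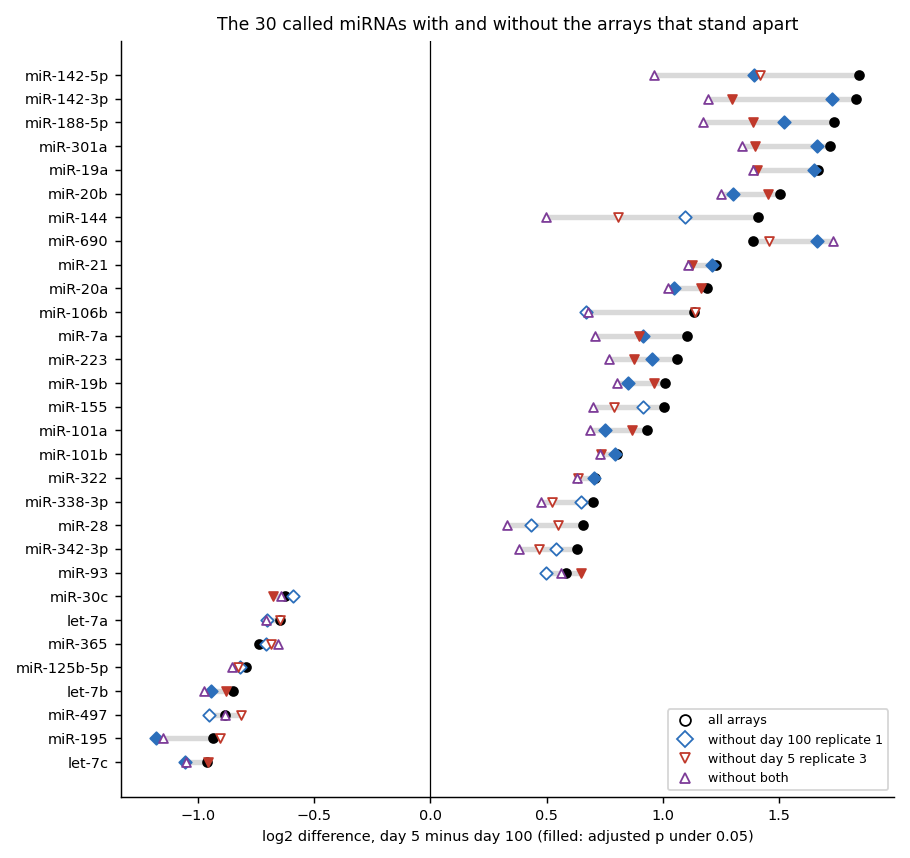
The log2 difference of each of the 30 called miRNAs is shown in the fit of all arrays (black circles), without replicate 1 of day 100 (blue diamonds), without replicate 3 of day 5 (red triangles pointing down) and without both (purple triangles pointing up), filled where the adjusted p was below 0.05. No difference crosses 0, and no purple triangle is filled.

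The other groups show where day 5 and day 100 lay. All arrays of day 8 and day 14 and 2 of the 3 syngeneic arrays were on slide 1, whereas the day 5 and day 100 allografts were on slide 2, so in what follows the slide and the group cannot be told apart for day 8 and day 14. On day 100, the mean was the highest of the 5 groups for all 8 miRNAs called lower on day 5, and the lowest of the 5 for 12 of the 22 called higher. Over all tested miRNAs the corresponding numbers were 19 of the 39 that were lower on day 5 and 27 of the 63 that were higher. These miRNAs were chosen by the difference between the days, so the counts are a description. For 19 of the 30, the mean of the syngeneic day 5 grafts lay between the 2 allograft days. MiR-142-3p, miR-142-5p, miR-223, miR-155, miR-342-3p and miR-93 had syngeneic means below that of day 100, which for miR-223 were -2.61 and -1.81. MiR-101a and miR-101b had syngeneic means above that of day 5, for miR-101b -0.42 against -1.19. For all 8 lower miRNAs, the day 14 mean was still lower than that of day 5, and for let-7c the mean was -0.44 in syngeneic grafts and went from -0.74 on day 5 through -0.38 and -0.87 in the grafts of day 8 and day 14 to 0.22 in those of day 100.

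**Figure D5:**
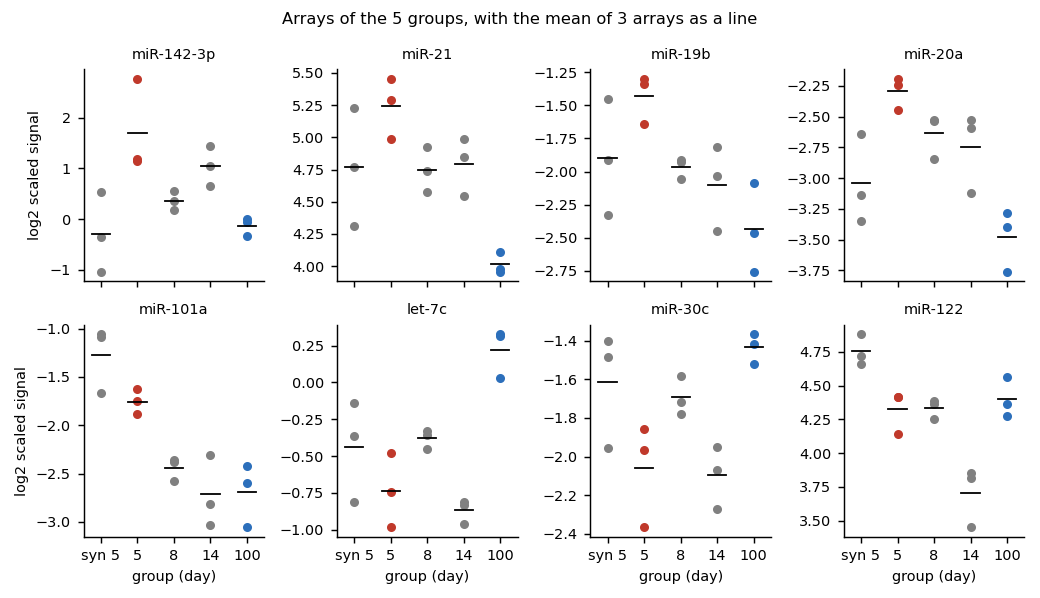
The log2 scaled signal on every array of the 5 groups (syngeneic day 5, then allograft day 5, 8, 14 and 100) is plotted for 8 miRNAs, with a separate y axis for each and the group mean as a line. Day 100 (blue) is the lowest group for miR-21, miR-19b and miR-20a and the highest for let-7c and miR-30c, and miR-122 on day 5 (red) and day 100 overlap.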

How the data were processed

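The authors deposited one Agilent Feature Extraction file (version 9.5.1.1) per array, with the background-subtracted intensity of each spot on a linear scale and detection flags, and no normalization between arrays. The median spot and background intensities that the authors deposited were used in an alternative only. Per the labels, total RNA was labeled with Cy3. A table of processed values for all arrays was not used.

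Control and outlier spots were left out, spots were averaged per probe, and the 1 to 4 probes of a miRNA were summed. Detection of a miRNA required a probe with a share of 0.5 or more of its spots flagged as well above background. No spot was saturated. Testing was limited to the 103 mouse miRNAs that every array of some group detected. The scaling factor of an array was the 75th percentile of the 52 miRNAs detected on all 15 arrays, and the scaled signals were given a minimum of 0.0270 and put on the log2 scale. One mean per group was fitted to the 15 arrays with limma 3.58.1 in R 4.3.3 (lmFit, eBayes), with Benjamini-Hochberg adjustment over the 103 miRNAs and a threshold of 0.05. The fit was tested on simulated data. The methods name Student's t-test, which was run as an alternative.

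The text names the 10 largest rises and 10 largest falls among called miRNAs without overlap (8 fell), tested members of the lists, opposite arms, and miRNAs detected on all arrays of one day and none of the other. The lists not described in the text were the miR-148 family, fragments of other RNAs and the Dlk1-Dio3 cluster, each with 1 tested member, of which limma called 0 and 0 had an unadjusted p below 0.05. The members and lists were chosen with earlier results of these data known. Hairpins were called neighbors within 10000 bases. Python 3.11.15, numpy 2.4.6, pandas 2.3.3, scipy 1.17.1 and matplotlib 3.10.9 were used. The number of arrays limits the precision.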

Additional observations from a re-analysis of the deposited data

How the results depend on the processing

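In the fit of all arrays, 30 miRNAs were called, 22 higher and 8 lower on day 5. The counts of all calls, of higher and of lower calls were 11, 10 and 1 with the 75th percentile over all mouse miRNAs as the scale, 38, 26 and 12 with the median, 20, 12 and 8 after quantile normalization, 14, 14 and 0 without scaling, and 13, 6 and 7 with the total signal. They were 11, 4 and 7 after normexp, 6, 4 and 2 of 567 without a filter, 14, 6 and 8 of the 53 miRNAs detected on all arrays of both days, 8, 4 and 4 of the 37 with a mean signal at least 1.5 times the mean, and 13, 8 and 5 with the floor multiplied by 4, where 8 of the 30 were at the floor on all arrays. With array weights they were 34, 21 and 13. The methods' t-test gave 38, 25 and 13 at its own threshold and 5, 5 and 0 after Benjamini-Hochberg adjustment. The cause of these changes was not tested, beyond the number of miRNAs tested with each filter. Brightest probe (27), total gene signal of the software (33), detection on all arrays of either day (30), floor divided by 4 (29), only the arrays of both days (27), slide block (35) and trend and robust moderation (31) left the count of all calls within 1.5 times. Without 1 array, the calls numbered 16 to 29, the higher ones 13 to 20 and the lower ones 1 to 9, with 1 lower call without replicate 1 of day 5, 3 without its replicate 3, 4 without replicate 1 of day 100 and 3 without its replicate 3. Without both replicate 1 of day 100 and replicate 3 of day 5, which was added after seeing the data, the 3 counts were 0, 0 and 0. In none of these alternatives did a called miRNA change sign. For single miRNAs that were called or listed, 262 values under an alternative lost the call, 38 gained one, among them 10 for miR-99a, and 1670 stayed on the same side.

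The replicate numbers did not pair the arrays, since the deviations of same-numbered arrays correlated at 0.12, -0.29 and -0.31, and not every array correlated best with its own number. With the replicate block, 30 miRNAs were called, 22 higher and 8 lower, of which 29 were among the 30.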

Other observations

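Some miRNAs that did not pass had large differences that rested on 1 array, and they are named here after their values were seen. MiR-33, encoded in a gene of sterol regulation, was at -4.46, -4.80 and -2.65 on day 5 and at -5.21, -4.40 and -5.21 on day 100, and its difference of 0.97 was 0.31 without replicate 3 of day 5. MiR-720 was at 3.92, 3.54 and 5.75 on day 5 and at 3.22, 3.93 and 2.93 on day 100, and its difference of 1.04 was 0.37 without that array. The difference of miR-1224 was 0.70 without that array, with day 5 values of 0.00, 0.31 and 1.36.

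Differences just outside the threshold were those of miR-10a (-0.77, adjusted p = 0.0511), miR-680 (1.34, adjusted p = 0.0511) and miR-99a (-0.67, adjusted p = 0.0511). Of 114 passenger strands on the array, 5 were tested and 0 were called by limma, with 0 below an unadjusted p of 0.05. Among them, miR-30a* and miR-30e* had differences of -0.01 and 0.09 in the fit of all arrays and of -0.65 and -0.58 without the pair of arrays that stood apart. Of the 38 miRNAs of the Dlk1-Dio3 cluster, which is expressed mainly in the embryo and in brain, 37 were detected on no array of either day.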
